A study of Mus musculus with 12 samples.

Results

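Serine is built from a glycolytic intermediate by the enzymes Phgdh, Psat1 and Psph, and it feeds glycine and folate-bound carbon through the mitochondrial enzymes Shmt2 and Mthfd2. Asns makes asparagine, and Bcat1 transfers the amino group of leucine, isoleucine and valine. Transcription of many of these genes is raised by Atf4, a factor whose own mRNA is translated preferentially when the initiation factor eIF2 is phosphorylated, for example when amino acids are scarce. Trib3, a pseudokinase, and Ddit3, the transcription factor also called CHOP, are further targets of Atf4. These 10 genes were chosen by name, with earlier results of the same comparison known, from the 24781 rows of a table of molecule counts. All 10 were present and passed the filter on low counts, which kept 9580 genes. Since the 10 genes were chosen on this comparison, their differences between the groups are a description. Their p-values are not printed, and naming or counting those past a threshold supports nothing.

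The libraries came from tumour-associated macrophages (TAMs), sorted from MC38 tumours of wild-type mice on day 7 after inoculation as CD45+CD11b+F4/80high cells, with 100 cells in each library. MC38 is a mouse colon adenocarcinoma line. There were 6 libraries from mice given picrotoxin, a blocker of the GABA type A receptor channel, and 6 from mice given the solvent DMSO, and the question was how blocking that receptor alters TAM transcripts. Per the methods of the study, mice of both sexes on a C57BL/6J or C57BL/6N background were 2 to 5 months old, and 40 µg of picrotoxin per mouse was injected into the peritoneum from 1 day before the intradermal inoculation, then every other day. The drug reached the whole animal, so the macrophages were not its only possible site of action. The methods gave each library its own mouse, whereas the figure text gave 4 mice for 6 libraries. Which libraries would share a mouse is not in the labels, and p-values below would be too small if some did.

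Library totals were 201697 to 309617 molecules, and 9846 to 10866 genes were detected in a library. The 14 macrophage markers, among them Adgre1, the gene behind the macrophage sort marker, and Csf1r, were found in every library. Their sum was 2914 to 4457 molecules in DMSO and 3293 to 4076 in picrotoxin libraries. As a share of the library, this sum was lowest in DMSO 3, 6 and 5, at 1.2674%, 1.4395% and 1.5014%. In all other libraries the share was between 1.5474% (picrotoxin 4) and 1.7725% (DMSO 4). DMSO 3, 5 and 6 also had the most genes detected. Of 10 epithelial markers 7 were at 0 in all libraries, including Epcam and Krt18, and the sum of the list was 8 to 14 molecules in DMSO and 9 to 21 in picrotoxin libraries. Whether MC38 cells express these epithelial genes was not tested. The sum of the T and NK cell list was 0 to 1 in DMSO and 0 to 23 in picrotoxin libraries, and no library held more than 13 molecules of the B cell, neutrophil, dendritic cell or endothelial lists. Fibroblast and matrix markers varied widely between libraries and are given below beside the 10 genes.

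Letters around the start sites of 4 of the genes are shown first. The 5′ ends of all 10 were searched for TGATGNAA, a core shared by many elements that bind Atf4 together with a C/EBP partner, on both strands. The windows, taken from RefSeq on GRCm38.p6 (mm10), run from 250 bases before to 50 bases after an annotated start site. All 10 genes had an entry, with 12 windows in all since Psat1 and Bcat1 have more than 1. The core was present in 2 of the 12 windows, those of Asns and Trib3, and in 3.97% of the 32851 windows of all genes. The full palindrome TGACGTCA was in 0 of the 12 windows and in 1.79% of all. In the lines that follow, each written 5′ to 3′ on the strand of the gene, capitals mark a match to the core. Asns and Trib3 are shown because they hold it, and Phgdh and Psat1 because they are enzymes of serine synthesis whose values differed between groups while their windows held no match.
Asns, chr6:7693225-7693374, minus strand: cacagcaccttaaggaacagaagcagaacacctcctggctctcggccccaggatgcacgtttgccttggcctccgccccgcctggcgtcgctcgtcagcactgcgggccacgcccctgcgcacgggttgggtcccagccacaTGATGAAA
Trib3, chr2:152344028-152344057, minus strand: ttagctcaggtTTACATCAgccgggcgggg
Phgdh, chr3:98339970-98340119, minus strand: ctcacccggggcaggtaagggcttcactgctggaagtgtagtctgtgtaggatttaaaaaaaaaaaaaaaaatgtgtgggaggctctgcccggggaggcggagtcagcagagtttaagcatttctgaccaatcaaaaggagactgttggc
Psat1, first window, chr19:15925060-15925209, minus strand: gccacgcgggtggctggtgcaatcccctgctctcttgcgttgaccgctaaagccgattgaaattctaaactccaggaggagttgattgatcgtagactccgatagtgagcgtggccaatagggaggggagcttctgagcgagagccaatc
Psat1, second window, chr19:15924623-15924772, minus strand: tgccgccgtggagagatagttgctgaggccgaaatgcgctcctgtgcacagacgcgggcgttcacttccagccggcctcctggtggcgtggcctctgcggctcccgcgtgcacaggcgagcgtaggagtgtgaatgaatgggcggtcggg

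The Asns match ends the printed stretch, covers bases -23 to -16 before the RefSeq start site and reads in the direction of the gene. GENCODE release M21 sets the start of Asns 45 bases further upstream, so that the match lies in the first exon there. The Trib3 match reads in the opposite direction at bases 15 to 22 after the RefSeq start, which GENCODE places 28 bases further downstream, beyond the match. For Psat1 the GENCODE gene begins 22278 bases before the first RefSeq start, and neither printed stretch overlaps an exon. A match is a run of letters only, and binding was not measured in these libraries.

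All 10 genes had a lower fitted mean with picrotoxin than with DMSO, but the sizes fell into 2 ranges. Log2 fold changes of picrotoxin against DMSO were -1.75 to -0.67 for Phgdh, Bcat1, Asns, Trib3, Psph and Psat1, and -0.18 to -0.02 for Mthfd2, Atf4, Shmt2 and Ddit3. The median over the 10 genes was -0.75, beside -0.01 over all 9580 tested genes. None of the 10 had an adjusted p under 0.05 in the quasi-likelihood test of edgeR, which 5 genes (0.0522%) of the whole table reached, 2 lower and 3 higher. An unadjusted p under 0.05 with the lower value in picrotoxin was found for 4 of the 10, Asns, Phgdh, Psat1 and Bcat1, and for 4.11% of tested genes, and with the higher value for 0 of the 10 and 3.65%. DESeq2, run on the same counts, gave an unadjusted p under 0.05 to the same 4 genes and to 3.82% of all tested genes in either direction. It gave an adjusted one to 0 of the 10 and to 2 of all tested genes. A fitted difference below 0, which all 10 shared, was found for 50.8% of tested genes. The groups were free of overlap for 0 of the 10 genes and, with picrotoxin lower, for 0.188% of tested genes. These counts use the comparison by which the genes were chosen and are given as a description. In bulk libraries a smaller number of cells of a kind and less RNA per cell cannot be told apart.

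**Figure D1:**
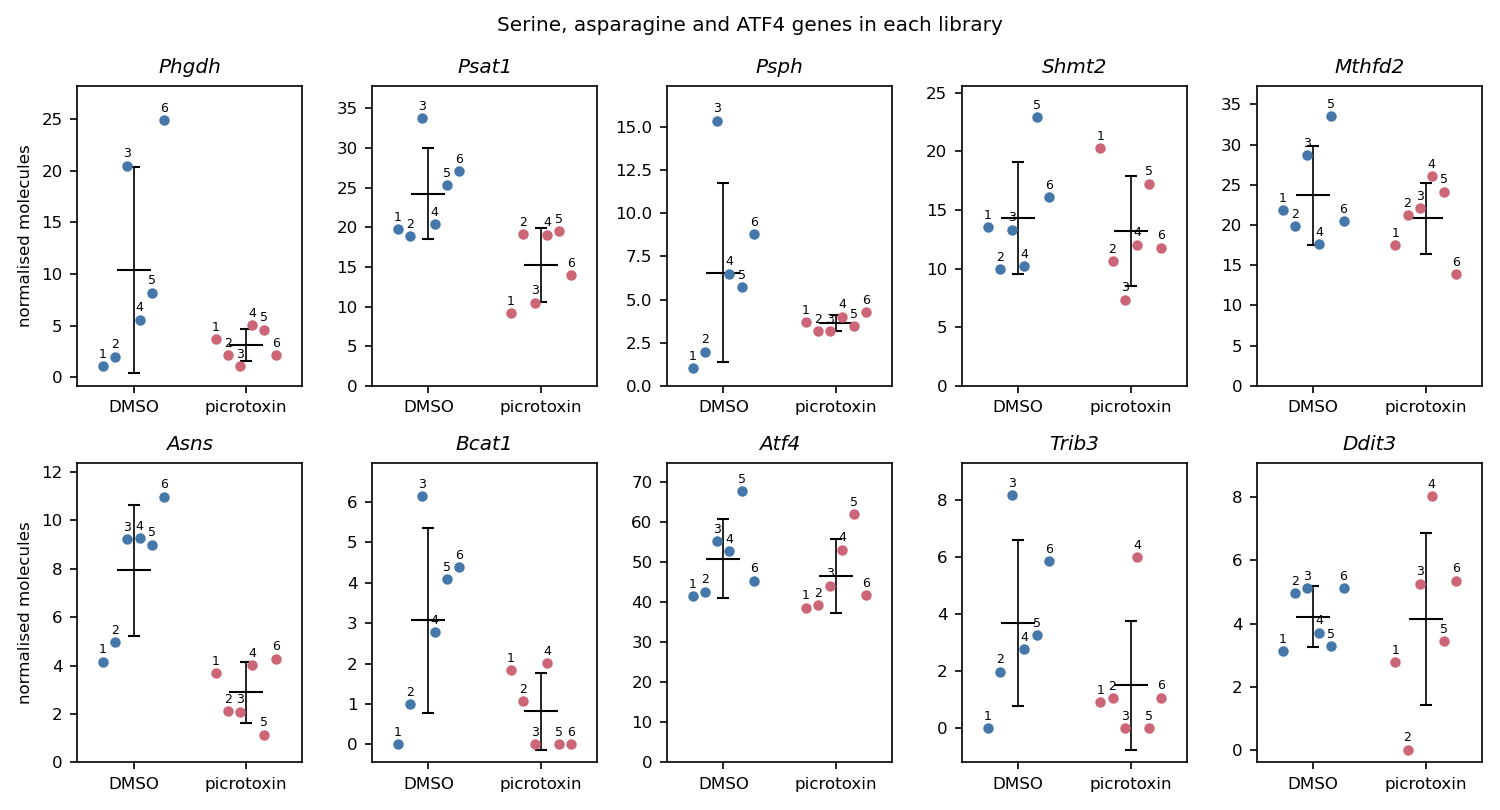
Normalised molecules (vertical axis, linear) of the 10 genes in each of the 6 DMSO (blue) and 6 picrotoxin (red) libraries, with the replicate number at each point and the mean ± SD as a bar. Phgdh reached 20.5 in DMSO library 3 and 24.9 in DMSO library 6, while all 6 picrotoxin libraries were between 1.05 and 5.02.

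Phgdh (chr3:98313170-98339990, minus strand) catalyses the first and committed step of serine synthesis, and of the 10 genes it varied most beyond counting error between DMSO libraries. Its normalised number of molecules, the count divided by a size factor of the library, was 1.04, 1.99, 20.5, 5.57, 8.18 and 24.9 in DMSO libraries 1 to 6. In picrotoxin libraries 1 to 6 it was 3.69, 2.12, 1.05, 5.02, 4.60 and 2.14. The 2 highest libraries were DMSO 3 and 6, the lowest library was also a DMSO library, and the groups overlapped. Means were 10.4 ± 9.99 with DMSO and 3.10 ± 1.57 with picrotoxin (SD, n = 6 each), and the fitted difference was -1.75 on the log2 scale (standard error 0.51). Within the DMSO group the counts varied far beyond counting error, with a chi-square per degree of freedom of 10.3, whereas within the picrotoxin group it was 0.753. Over all tested genes the median of this ratio was 1.07 in DMSO and 0.996 in picrotoxin libraries. Transcripts of 9 other genes in GENCODE share at least 200 bases with the Phgdh mRNA at 95% identity or more, the longest being 1608 bases of Gm9347 at 97.4%. How such reads were assigned is not stated, so the Phgdh count is uncertain in this respect.

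Psat1 (chr19:15904678-15947337, minus strand), the aminotransferase of the next step, had a smaller difference with less spread between libraries. It was at 19.8, 18.9, 33.8, 20.4, 25.4 and 27.1 normalised molecules in DMSO libraries 1 to 6 and at 9.22, 19.1, 10.5, 19.1, 19.6 and 13.9 in picrotoxin libraries 1 to 6. Of the 6 DMSO libraries 5 lay above every picrotoxin library, and the lowest, DMSO 2, lay just under 3 of them. Means were 24.2 ± 5.73 and 15.2 ± 4.66 (SD, n = 6 each), with a log2 fold change of -0.67 (standard error 0.21). Psph (chr5:129765558-129787449, minus strand) removes the phosphate in the last step of the pathway. It was at 1.04, 1.99, 15.4, 6.49, 5.73 and 8.79 in DMSO libraries 1 to 6, and at 3.69, 3.19, 3.16, 4.01, 3.45 and 4.29 in picrotoxin libraries 1 to 6. The picrotoxin libraries were close to one another and lay inside the range of the DMSO libraries. Means were 6.57 ± 5.19 and 3.63 ± 0.455 (SD, n = 6 each), with a log2 fold change of -0.83 (standard error 0.43). Exons of Psph overlap those of Cct6a on the other strand, and reads of this pair cannot be told apart where counting ignores strand, which was not stated.

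The mitochondrial folate enzymes that use serine differed little between the groups. Shmt2 (chr10:127517123-127522444, minus strand), which splits serine to glycine, was at 13.5, 9.93, 13.3, 10.2, 22.9 and 16.1 normalised molecules in DMSO libraries 1 to 6 and at 20.3, 10.6, 7.36, 12.04, 17.3 and 11.8 in picrotoxin libraries 1 to 6. The log2 fold change was -0.12 (standard error 0.25), and the ranges of the groups largely coincided. Mthfd2 (chr6:83305691-83325908, minus strand), which oxidises the carbon unit that Shmt2 releases, ranged from 17.6 to 33.5 in DMSO and from 13.9 to 26.1 in picrotoxin libraries. Its log2 fold change was -0.18 (standard error 0.19). Shmt2 shares exonic sequence with Ndufa4l2 on the other strand.

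Asns (chr6:7675169-7693254, minus strand) had the least overlap of the groups among the 10 genes. Its normalised number of molecules was 4.16, 4.97, 9.22, 9.28, 8.998 and 10.99 in DMSO libraries 1 to 6 and 3.69, 2.12, 2.10, 4.01, 1.15 and 4.29 in picrotoxin libraries 1 to 6. Only picrotoxin library 6 reached into the DMSO range, and it lay above DMSO library 1 alone. Means were 7.93 ± 2.72 and 2.89 ± 1.27 (SD, n = 6 each), with a log2 fold change of -1.42 (standard error 0.37). These means rest on 54 molecules in all DMSO and 17 in all picrotoxin libraries, and the spread within each group was no larger than counting error, with a chi-square per degree of freedom of 0.975 and 0.511. Bcat1 (chr6:144993835-145076184, minus strand) rested on few molecules, 21 in all DMSO and 5 in all picrotoxin libraries. It was at 0, 0.993, 6.15, 2.78, 4.09 and 4.39 in DMSO libraries 1 to 6, and at 1.84, 1.06, 0, 2.01, 0 and 0 in picrotoxin libraries 1 to 6. DMSO libraries 3 to 6 lay above all picrotoxin libraries, whereas DMSO 1 and 2 did not. The log2 fold change was -1.72 (standard error 0.71). A count of 0 in the smallest library allows a share of up to 0.00149% of its molecules (3 molecules), for counting error only. Bcat1 exons overlap Gm26666 on the other strand.

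The mRNA of Atf4 itself (chr15:80255184-80257541, plus strand) was close in the groups. It was at 41.6, 42.7, 55.3, 52.9, 67.9 and 45.4 normalised molecules in DMSO libraries 1 to 6 and at 38.7, 39.3, 44.2, 53.2, 62.1 and 41.8 in picrotoxin libraries 1 to 6. Means were 51.0 ± 9.96 and 46.5 ± 9.26 (SD, n = 6 each), and the log2 fold change was -0.13 (standard error 0.15). Since Atf4 is controlled largely in translation, its mRNA does not measure the protein. Of its targets, Trib3 (chr2:152337422-152344032, minus strand) was at 0, 1.99, 8.19, 2.78, 3.27 and 5.86 in DMSO libraries 1 to 6 and at 0.922, 1.06, 0, 6.02, 0 and 1.07 in picrotoxin libraries 1 to 6. Picrotoxin library 4 stood apart from the other 5 of its group and exceeded all DMSO libraries but number 3. The log2 fold change was -1.20 (standard error 0.65), and leaving out 1 library moved it to between -2.36, without picrotoxin 4, and -0.88, without DMSO 3. Ddit3 (chr10:127290774-127296288, plus strand) ranged from 3.12 to 5.13 in DMSO and from 0 to 8.03 in picrotoxin libraries, with a log2 fold change of -0.02 (standard error 0.43). Its exons overlap those of Mars on the other strand, so the same limit of strand holds.

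The highest of all 12 libraries was DMSO 3, 5 or 6 for 9 genes, with Ddit3, highest in picrotoxin 4, as the exception. For 3 genes, Phgdh, Psat1 and Bcat1, these 3 were also the 3 highest libraries, whereas Atf4 in DMSO 6, at 45.4, lay below DMSO 4 and picrotoxin 4 and 5. DMSO 1 was the lowest of its group for 7 genes. Summed over the 10 genes, DMSO libraries 3, 5 and 6 held 83.1, 80.9 and 74.6 molecules per 100000 of the library, and DMSO libraries 1, 2 and 4 held 46.4, 46.7 and 56.9. Picrotoxin libraries 1 to 6 held 43.2, 41.9, 40.1, 58.0, 58.5 and 42.0. For this sum DMSO 1, 2 and 4 were thus within the range of the picrotoxin libraries, and DMSO 3, 5 and 6 lay above it. Atf4, which was close in the groups, gave the most molecules to the sum. Taken singly, Asns, Phgdh, Psat1, Psph and Bcat1 were higher in DMSO 4 than in every picrotoxin library. Trib3, Shmt2, Mthfd2, Atf4 and Ddit3 were not. Summed over Phgdh, Psat1 and Psph, DMSO 4 also lay above all picrotoxin libraries, whereas DMSO 1 and 2 did not.

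The sum of 14 fibroblast and matrix markers was also highest in these 3 DMSO libraries, though not each marker was. Of the 16 markers in that list 15 were detected, and Fap, which marks activated fibroblasts, was at 0 in all libraries. Fn1 and Lrrc17 held most of the molecules in every library, and Fn1 is also made by macrophages. The other 14, which include Col1a1, Col3a1, Dcn and Sparc, summed to 18, 19, 218, 33, 816 and 147 molecules in DMSO libraries 1 to 6 and to 39, 18, 9, 60, 52 and 19 in picrotoxin libraries 1 to 6. Col3a1, a fibrillar collagen, was at 94, 233 and 43 molecules in DMSO libraries 3, 5 and 6 and at 3 to 16 in the other 9 libraries. Col1a1 and Col1a2, the chains of type I collagen, were high in DMSO 5 alone, at 195 and 106 molecules, and were at 0 to 4 and 0 to 7 in the other 11 libraries. Dcn, a proteoglycan, was at 16, 41 and 5 in DMSO 3, 5 and 6 and at 0 to 11 elsewhere. All 16 markers took 0.540% ± 0.342 of the molecules with DMSO and 0.294% ± 0.0657 with picrotoxin (SD, n = 6 each), a difference that was not past 0.05 (exact permutation test, two-sided, p = 0.119). Without DMSO library 1 that exact permutation p was 0.0476. Counted over all 16, DMSO 4 at 0.561% exceeded DMSO 6 at 0.400%, whereas DMSO 5 and 3 were highest at 1.05% and 0.821%. The order of the 3 libraries differed between genes. DMSO 5 had the most collagen by far, and Shmt2, Mthfd2 and Atf4 were also highest of all 12 libraries there, at 22.9, 33.5 and 67.9. Phgdh, Psph, Trib3, Psat1, Asns, Bcat1 and Ddit3 were lower in DMSO 5 than in DMSO 3 and 6. The part of matrix-rich cells or RNA in the differences of the 10 genes was not tested.

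**Figure D2:**
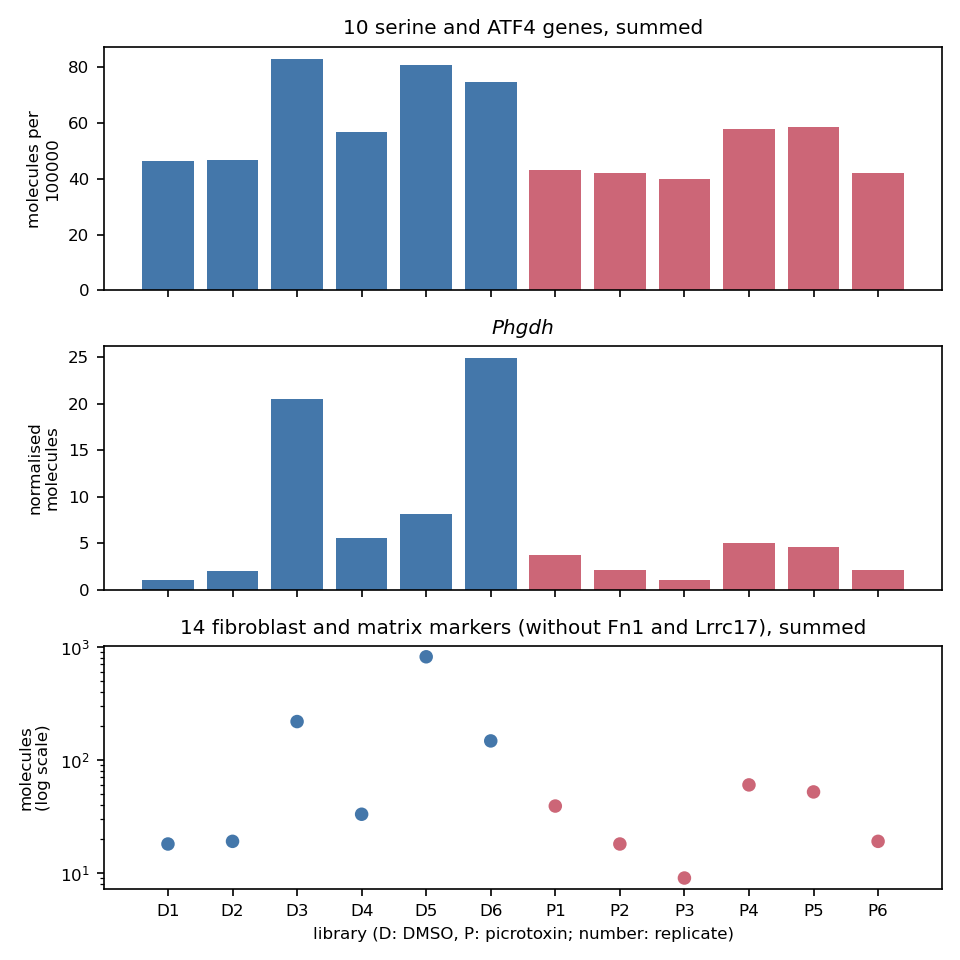
Molecules per 100000 summed over the 10 genes (top, linear axis), normalised molecules of Phgdh (middle, linear axis) and molecules summed over 14 fibroblast and matrix markers (bottom, log axis) in the 12 libraries, DMSO in blue and picrotoxin in red. DMSO libraries 3, 5 and 6 were the highest for the summed genes at 83.1, 80.9 and 74.6, and held 218, 816 and 147 marker molecules.

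The comparison was then repeated without the DMSO libraries that held the most of these 14 markers, a choice made after the values were seen for the set of 3. The same 3 libraries were the highest for the sum of the 10 genes, so a smaller difference without them follows from leaving them out, and these values do not bear on the part of matrix transcripts. Without DMSO 3, 5 and 6, the log2 fold change of Asns was -1.05 (standard error 0.49) and that of Psat1 was -0.39 (standard error 0.26). Phgdh went to 0.07 (standard error 0.61), Psph to 0.14 (standard error 0.56) and Trib3 to -0.07 (standard error 0.91). Of the 9 genes that still passed the filter on low counts, 3 were below 0, and the median was 0.07, beside 0.00 (0.0039) over all genes tested. Bcat1 did not pass the filter. Without DMSO 3 and 5 alone, which left DMSO 6 with the highest Phgdh value in the fit, 7 of the 10 were below 0, the median was -0.48 and Phgdh was at -1.56 (standard error 0.53). In replicates 3 to 6 alone, Phgdh was at -2.17, Bcat1 at -2.75, Asns at -1.66 and Ddit3 at 0.39. Leaving out any single library kept Asns between -1.55 and -1.27 and Psat1 between -0.75 and -0.55. The ranges were wider for Phgdh, between -1.96 and -1.21, Psph, between -1.03 and -0.46, Trib3, between -2.36 and -0.88, and Bcat1, between -2.12 and -1.47. The value nearest 0 was reached without DMSO 6 for Phgdh and without DMSO 3 for Psph and Trib3. Ddit3 changed sign in 6 and Shmt2 in 2 of the 12 fits that left out 1 library, the other 8 genes in none.

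**Figure D3:**
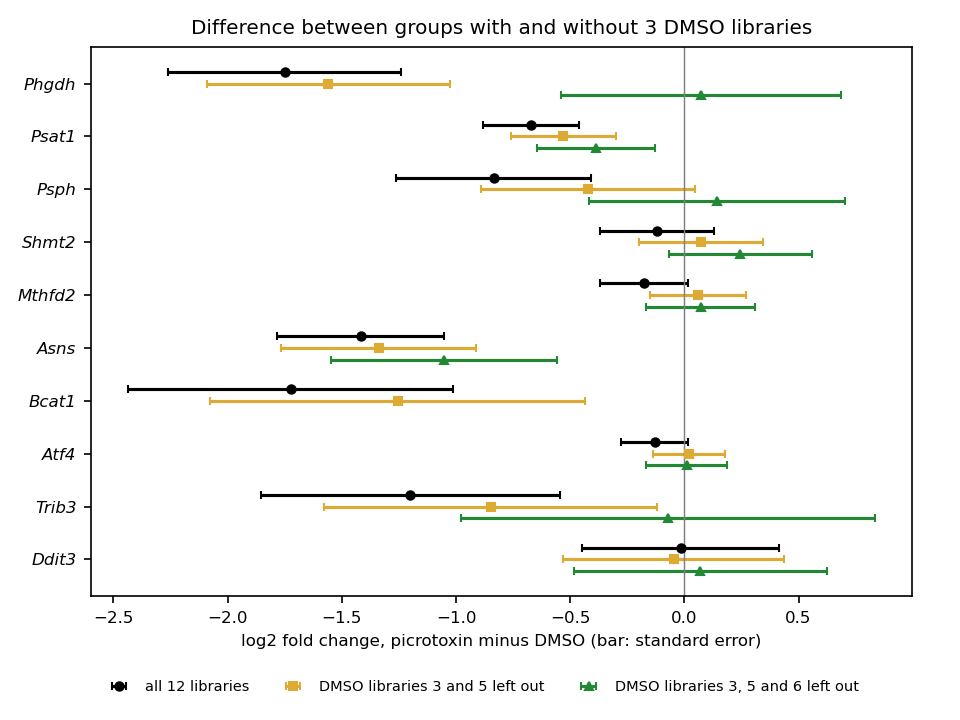
Fitted log2 fold change of picrotoxin against DMSO (horizontal axis, bar: standard error) for each gene with all 12 libraries, without DMSO libraries 3 and 5, and without DMSO libraries 3, 5 and 6. DMSO 3, 5 and 6 were also the highest for the sum of the 10 genes. Without them Asns was at -1.05 and Phgdh at 0.07, and Bcat1 did not pass the filter there.

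Genes whose levels over the 12 libraries most resembled the mean log2 CPM (counts scaled to library size, prior count 2) of the 10 were sought among 3737 others with a mean of at least 10. The closest by Spearman correlation were Ywhaq, a 14-3-3 protein, at 0.97, Timm22, which inserts proteins into the inner mitochondrial membrane, at 0.94, and Puf60, Sparc and Cct5 at 0.94 each. These are descriptions over 12 libraries that share the same spread between DMSO libraries. Timm22 was at 22.9, 25.8, 123.9, 36.2, 60.5 and 98.1 normalised molecules in DMSO libraries 1 to 6 and at 17.9 to 36.1 in picrotoxin libraries. Like Phgdh, it was highest in DMSO 3 and 6. Sparc, a matrix protein and 1 of the 14 markers above, was at 36.9, 100.6 and 29.3 in DMSO 3, 5 and 6 and at 27.1 in picrotoxin 4, and at 1.05 to 9.20 in the other 8 libraries.

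The surrounding pathways were read from 5 lists with 122 further genes, of which 105 passed the filter. The lists were written with earlier results of these data known, so the counts of calls in them are a description. None had an adjusted p under 0.05 in edgeR or DESeq2. At an unadjusted p under 0.05 in edgeR, 8 were lower and 4 were higher with picrotoxin, together 11.4% of the 105, beside 7.77% of all tested genes. DESeq2 found 4 of the 105, beside 3.82% of all tested genes. With library totals in place of TMM scaling, edgeR found 8 lower and 0 higher, beside 7.78% of all genes in either direction. Without DMSO 3, 5 and 6 it found 1 lower and 4 higher of 99, beside 5.01% of all genes. The total of 12 was 6 without DMSO 3 and 7 without DMSO 6 or without picrotoxin 6. Shares of all tested genes there were 6.58%, 6.6% and 6.87%. The median log2 fold change over the 105 genes was -0.05, and 57 were below 0.

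In serine, glycine and folate metabolism 4 of 25 tested genes (16%) had an unadjusted p under 0.05 in edgeR, beside 7.77% of all tested genes in either direction. All 4 had the lower value in picrotoxin libraries, which 4.11% of all tested genes had at this threshold. DESeq2 gave an unadjusted p under 0.05 to 2 of the 25, Ahcy and Slc19a1, and to 3.82% of all tested genes. Ahcy, which clears the product of methylation reactions, was at 9.36 ± 4.84 normalised molecules with DMSO and 5.16 ± 1.22 with picrotoxin (SD, n = 6 each), a log2 fold change of -0.86 (adjusted p = 0.501). Slc19a1, the reduced folate carrier, was at 3.04 ± 1.82 and 0.817 ± 0.951, and Aldh1l2, a mitochondrial folate enzyme, at 1.98 ± 1.52 and 0.547 ± 0.600 (SD, n = 6 each). Their log2 fold changes were -1.67 and -1.77. Atic of purine synthesis had a log2 fold change of -0.41. The median of the list was -0.07 and 13 of 25 genes were below 0. The glycine cleavage genes Gldc and Amt, and Sds and Cbs, which consume serine, had no molecule in any library. Ahcy shares up to 2083 bases with Gm4737 at 99.7% identity, so that its count is uncertain, and Aldh1l2 overlaps D10Wsu102e on the other strand.

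Of 19 other enzymes of amino acid synthesis 1 had an unadjusted p under 0.05, Glud1, which links glutamate to the citric acid cycle, at 44.8 ± 3.46 with DMSO and 54.5 ± 7.38 with picrotoxin (SD, n = 6 each; log2 fold change 0.30, adjusted p = 0.600). Got2, Glul and Bckdha followed, with log2 fold changes of -0.31, 0.27 and -0.69. The single call in edgeR was 5.26% of this list, beside 7.77% of all tested genes, and DESeq2 made none in it. Of 15 transporters none passed the unadjusted threshold in edgeR or DESeq2. Among them Slc7a5, the large neutral amino acid carrier, was at 3.20 ± 2.34 and 1.54 ± 1.46, the glycine carrier Slc6a9 at 1.90 ± 2.02 and 0.502 ± 1.23, Slc38a9 at 5.53 ± 1.60 and 3.57 ± 1.48, and Slc43a2 at 22.2 ± 3.91 and 27.1 ± 2.18 (SD, n = 6 each).

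Of 30 other Atf4 targets and partners 5 (16.7%) had an unadjusted p under 0.05 in edgeR, in both directions, beside 7.77% of all tested genes. DESeq2 gave an unadjusted p under 0.05 to 1 of the 30, Vldlr. The lower ones were Vldlr, a lipoprotein receptor, with a log2 fold change of -2.06, Mars, the methionyl-tRNA synthetase, with -0.66, and Tars, the threonyl-tRNA synthetase, with -0.43. Vldlr rested on only 20 molecules in all 12 libraries, at 2.53 ± 2.46 with DMSO and 0.488 ± 0.830 with picrotoxin (SD, n = 6 each). It was highest in DMSO 3 and 5, at 6.15 and 4.91. Tars lies outside the rule for named genes and was added once its value was known. The higher ones were the C/EBP partner Cebpg (log2 fold change 0.38) and Atf3 (0.28), which were at 25.1 ± 3.26 and 72.0 ± 11.6 in DMSO and at 32.2 ± 5.33 and 86.3 ± 12.7 in picrotoxin libraries (SD, n = 6 each). The median of the list was -0.07. Neither Cebpg nor Atf3 went in the direction of Asns and Phgdh. The RefSeq windows of Atf3 and Vldlr also held the core TGATGNAA, on the other strand at bases -110 to -103 and -200 to -193.

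Among 16 genes of eIF2, its kinases and its exchange factor, Eif2s2 had the smallest p of all 105. This gene encodes the beta subunit of eIF2. It was at 122.8, 103.3, 171.1, 116.0, 147.2 and 149.4 normalised molecules in DMSO libraries 1 to 6 and at 108.8, 83.9, 107.3, 91.3, 105.8 and 76.1 in picrotoxin libraries 1 to 6. DMSO library 2 was the only one of its group to fall among the picrotoxin libraries. The log2 fold change was -0.49 (standard error 0.12), which did not pass the adjustment over all genes (edgeR, adjusted p = 0.138). Without DMSO library 2 the adjusted p in edgeR was 0.0326, and over all alternatives run it was between 0.00476 and 0.936. Eif2s1, the alpha subunit whose phosphorylation controls Atf4 translation, went the other way, at 28.6 ± 4.66 with DMSO and 36.0 ± 4.05 with picrotoxin (SD, n = 6 each; log2 fold change 0.33, adjusted p = 0.621), and it shares up to 949 bases with Gm12734 at 96.8% identity. Eif2ak3, the kinase PERK, was at 2.22 ± 1.82 and 4.36 ± 2.23, and Eif2b4 at 5.66 ± 2.22 and 3.93 ± 1.52 (SD, n = 6 each). The phosphorylation of eIF2 was not measured.

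**Figure D4:**
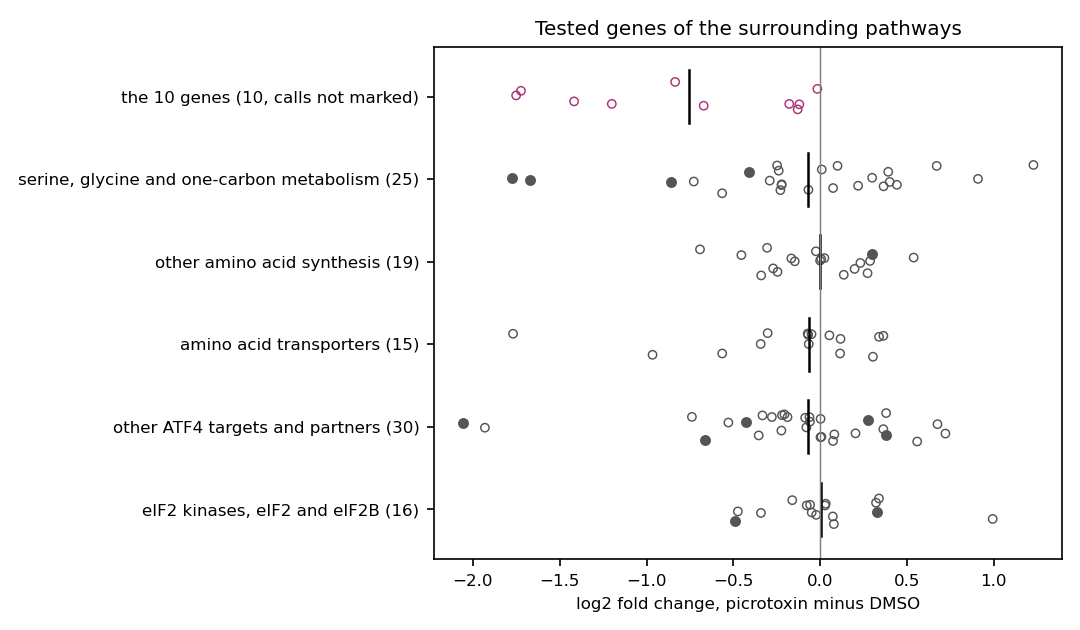
Fitted log2 fold changes of picrotoxin against DMSO for the 10 genes (purple, calls not marked) and for the tested genes of 5 lists (grey, number tested in brackets), with filled points for an unadjusted p under 0.05 in edgeR and a black line at each median. The medians of the lists lay between -0.07 and 0.00 (0.0026 for the eIF2 list), and that of the 10 genes was -0.75. Since the 10 genes were chosen on this comparison, the distance between these medians is a description and supports nothing.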

How the data were processed

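Counts of RNA molecules in 12 libraries were used as the authors deposited them, whole numbers per gene symbol counted by molecular barcode. Per the methods, reads were mapped to mm10 with STAR 2.5.4b and annotated with refFlat. The handling of multi-mapping reads, strand and barcode errors is not given in the sources used here. The 10 genes, the pathway lists and the marker lists were chosen with earlier results of these data known. Genes with a mean normalised count above 1 were tested with the quasi-likelihood test of edgeR 4.0.16 (TMM, all 12 libraries, no covariate, Benjamini-Hochberg adjustment over all 9580 genes), and DESeq2 1.42.0 was an alternative. Normalised molecules are counts divided by DESeq2 size factors. Marker shares were compared by exact permutation (two-sided, 924 assignments and smallest p 0.00216 with all 12 libraries). The fits were checked on simulated counts in which 200 genes differed. Replicate pairs differed by more than sampling noise (chi-square per degree of freedom 1.23 to 3.15 in 30 pairs). Named were, of each pathway list, up to 4 genes with the smallest p, and the 5 genes most alike. Positions are from GENCODE M21, shared sequence was sought with BLAST+ 2.17.0, and promoter windows are RefSeq's.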

Additional observations from a re-analysis of the deposited data

Results flagged for a closer look

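In the 26 groups of 6 libraries examined for a single library far from the others, 2 were found. The rule gives about 1 in 20, or 1.3, for independent and normally distributed values. Low counts are not so distributed, and a marker list is part of another, so the number that chance gives here is not known. Trib3 in picrotoxin library 4 was at 6.02 normalised molecules, whereas the other 5 picrotoxin libraries were between 0 and 1.07. In the same library Sparc was at 27 molecules, whereas the rest of the group had 1 to 8. The 14 fibroblast and matrix markers without Fn1 and Lrrc17 summed to 816 molecules in DMSO library 5, and to 18 to 218 in the other DMSO libraries.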

How the results depend on the processing

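The depth limits the rarer genes most, since Bcat1, Trib3 and Ddit3 rest on 26, 34 and 52 molecules in all 12 libraries. Over 223 repeat fits of the 10 genes, 218 values moved by less than the SD between libraries of a group. That is a loose measure, since the sign of the difference changed in 18 of the 223. Without DMSO 3 and 5, for example, Shmt2, Mthfd2 and Atf4 went to 0.07, 0.06 and 0.02. Without DMSO libraries 3, 5 and 6, Phgdh turned to 0.073, Psph to 0.14 and Sparc to 0.99 on the log2 scale. These 3 libraries were also the highest for the sum of the 10 genes. Of the whole table, 5 genes passed an adjusted p under 0.05, and this count was 2 in DESeq2, 13 with library totals (3 higher and 10 lower), 81 with every gene of at least 1 count, 49 in replicates 3 to 6 alone, 27 with a term for numbers 1 and 2 against 3 to 6, 12 without the Rn45s row, and 1 without DMSO 3 and 5 or DMSO 3, 5 and 6. Leaving out each library gave 0 to 25, with 25, 23 and 15 without DMSO 1, 2 and 4, 3 without picrotoxin 5, 1 without DMSO 3 or picrotoxin 1, and 0 without DMSO 5, DMSO 6, picrotoxin 2, picrotoxin 3 or picrotoxin 4. Of the pathway genes, 12 with an unadjusted p under 0.05 became 4 in DESeq2, 7 among genes with a mean above 10, 5 without DMSO 3 and 5 and 5 (4 higher, 1 lower) without DMSO 3, 5 and 6. In the same order, 105, 47, 102 and 99 pathway genes were tested. Of all tested genes, 3.82%, 10.6%, 5.46% and 5.01% had an unadjusted p under 0.05 there, beside 7.77% in the main fit. Leaving out each library gave 6 to 15, with 6 without DMSO 3, and 7 without DMSO 6 or picrotoxin 6. The 0 pathway genes with an adjusted p under 0.05 became 1, Eif2s2, with every gene of at least 1 count, without DMSO 2 (range 0 to 1 on leaving out each library), in replicates 3 to 6 alone and with the term for numbers. The difference in fibroblast and matrix share, -0.246 percentage points, was -0.384 in replicates 3 to 6 alone (exact permutation p = 0.0286), and -0.314 to -0.144 on leaving out each library. With 4 libraries in each group, 0.0286 is the smallest p that this permutation test can give. Some alternatives tested other genes or fewer samples, and the cause of the changes between fits was not tested.

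Same-numbered libraries did not deviate together, with correlations of -0.02 to 0.05 and 0 of 6 over 0.1, and no library correlated best with its own number (0 of 6). With the replicate number as a block, 43 genes had an adjusted p under 0.05, 1 of them in the pathway lists (Eif2s2), 10 pathway genes had an unadjusted one, and the marker share had an exact sign-flip p of 0.125.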
